A study of Mus musculus with 24 samples.

Results

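Hearts with experimental autoimmune myocarditis (EAM) were compared with control hearts at day 21 (D21) after the first immunization. The comparison used 8 of the 24 samples of the series, 4 EAM and 4 control hearts, chosen by the time and treatment in their labels. Of 41388 genes in the deposited table, 15266 passed a minimum of 10 reads in 4 or more of these 8 libraries and were tested. All mice were wild type males, given as Balb/c in the labels and BALB/cAnNCrl in the methods, and were immunized at 8 to 10 weeks of age, and RNA came from a frozen portion of each heart. EAM mice were injected on days 0 and 7 with 200 µl of an emulsion of peptide in PBS and SCFA, complete Freund's adjuvant supplemented with heat-killed mycobacteria, which gave 100 µg of a peptide of the alpha cardiac myosin heavy chain. Control mice received the same volume of adjuvant emulsified with PBS on the same days, and every mouse received pertussis toxin (PTX) on day 0. Controls thus carry the adjuvant and the toxin. As described, they differ from EAM mice by the peptide and by the DMSO in which it was dissolved with PBS. The study picked samples for RNA that had inflammation as far as it could, since the model may not take in every immunized mouse. The samples of a group came from 4 mice. What the replicate numbers mark is stated in neither labels nor methods.

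In this model, CD4+ T cells that recognise cardiac myosin enter the heart with monocytes, macrophages and neutrophils, and the heart muscle is injured. T cells and natural killer (NK) cells release interferon-gamma, which makes other cells present antigen and secrete the chemokines that bind the receptor CXCR3. As inflammation subsides, fibroblasts lay down collagen, and the model can pass into a dilated, scarred heart. Working heart muscle differs between chambers, since atrial and ventricular cardiomyocytes use different myosin light chains and only atrial cells store much natriuretic peptide in the adult.

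Total counts ran from 15814863 to 22859202 per library. Values below are CPM, counts as parts of a fixed library total after TMM scaling over the 8 libraries, given for replicates 1, 2, 3 and 4 in that order, unless scaling over all 24 is stated. The 4 D21 EAM libraries carry another library code than the other 20 libraries of the series, controls of D21 included, so this code and EAM cannot be told apart at D21. One library, EAM replicate 3, stood apart. Xist, the RNA that silences one X chromosome in cells with more than one, was measured at 0, 0.0545, 165 and 0.552 CPM (24-library scaling) in the EAM hearts and at no more than 0.552 CPM in any of the other 23 libraries of the series. In that library the X-linked genes Kdm6a (40.4 CPM, 30.7 CPM at most elsewhere), Kdm5c (107 against 95.9 CPM), Eif2s3x (249 against 176 CPM) and Ddx3x (369 against 359 CPM) were also at their highest. The Y-linked genes Ddx3y (140 CPM), Kdm5d (23.9 CPM) and Uty (30.9 CPM) lay within the range of the other libraries, and Eif2s3y (96.6 CPM) was above their highest value of 87.2 CPM. Whether RNA of a second animal entered this library, or the sample is another one than its label says, was not tested. The library labelled EAM replicate 3 also had the weakest leukocyte signal of the 4 EAM hearts, as described below, and counts are given with and without it. The sex-linked genes were chosen after values were seen.

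**Figure D1:**
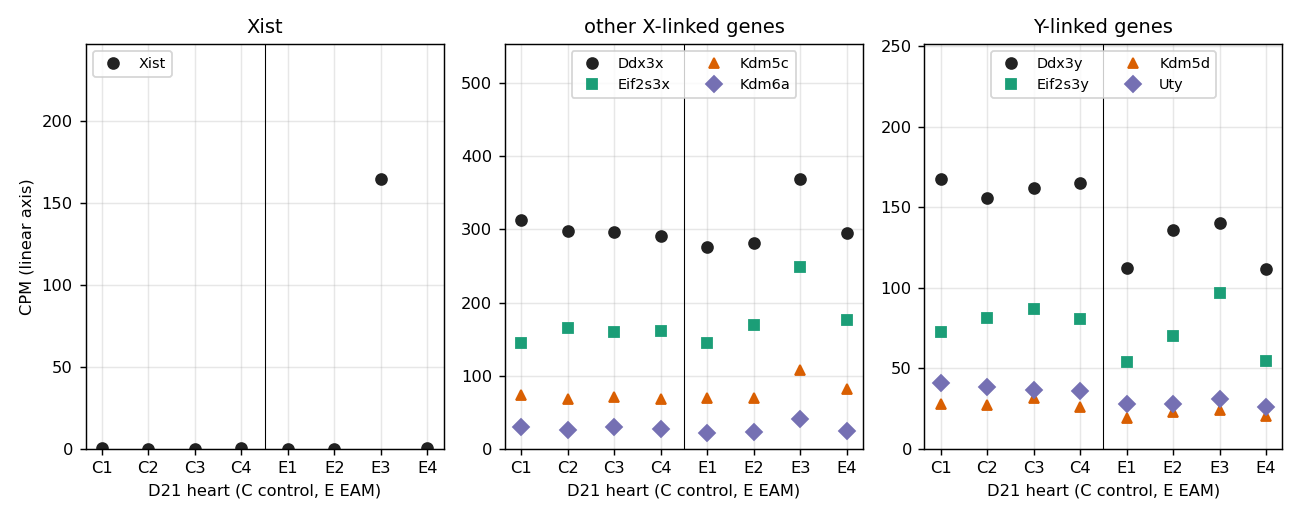
Level in CPM (linear axes, scaled over all 24 libraries) of Xist, of 4 other X-linked genes and of 4 Y-linked genes in each of the 4 control (C) and 4 EAM (E) hearts of D21. Points are single libraries; Xist stands at 165 CPM in EAM replicate 3 and near 0 elsewhere, while all 8 libraries contain Y-linked transcripts.

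At a false discovery rate (FDR, Benjamini-Hochberg) under 0.01 and at least a 2-fold change in edgeR's quasi-likelihood test, 630 genes were higher in EAM hearts, 4.13 percent of the genes tested, and 177 were lower, 1.16 percent. The groups did not overlap for any of these genes. Such separation was common, since of all 15266 genes tested 2712 lay without overlap above the controls and 2799 below them. Over all genes tested the median log2 fold change was -0.01. An adjusted p under 0.05 was reached by 4932 of them, both directions together, so at least as many had an unadjusted p under 0.05. Counts of list members at that unadjusted limit, given below, stand beside this number. The higher genes had a median log2 fold change of 2.71 and the lower genes of -1.94. Most calls lay close to the limit, with 562 of the 630 and 104 of the 177 at an adjusted p between 0.005 and 0.01. The count moved with every library. Leaving out control replicate 1, 2, 3 or 4 left 0, 0, 0 and 4 genes higher and 7, 7, 11 and 31 lower, and leaving out EAM replicate 1, 2, 3 or 4 left 11, 42, 1565 and 393 higher and 14, 56, 530 and 146 lower. In edgeR's likelihood ratio test, leaving out 1 library left between 1067 and 1721 genes higher and between 301 and 829 lower, and at an FDR of 0.05 in the quasi-likelihood test between 614 and 630 of the 630 and between 167 and 177 of the 177 stayed past that limit and 2-fold. All 630 higher genes and 176 of the 177 lower genes were called without EAM replicate 3. Against the D10 controls no gene passed in either direction in this test (smallest adjusted p = 0.0109, with 6727 of 15051 genes at an unadjusted p under 0.05), against the D15 controls 628 were higher and 72 lower, and against all 12 controls 1580 and 353. In DESeq2 1364 genes were higher and 369 lower, and in limma-voom 80 and 135. By list, limma-voom called higher 1 of 12 general leukocyte genes, 4 of 21 T cell genes, 1 of 9 cytotoxic genes, 0 of 12 neutrophil genes, 5 of 12 class II genes and 3 of 23 collagen genes, and called lower 7 of 10 atrial genes. Where a call below is lost or gained when the replicate number enters the fit as a block, that adjusted p is given beside it (with the block). Adjusted p-values of single genes are from edgeR's quasi-likelihood test, over all 15266 genes, and over 16318 genes for a difference between D21 and D15.

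**Figure D2:**
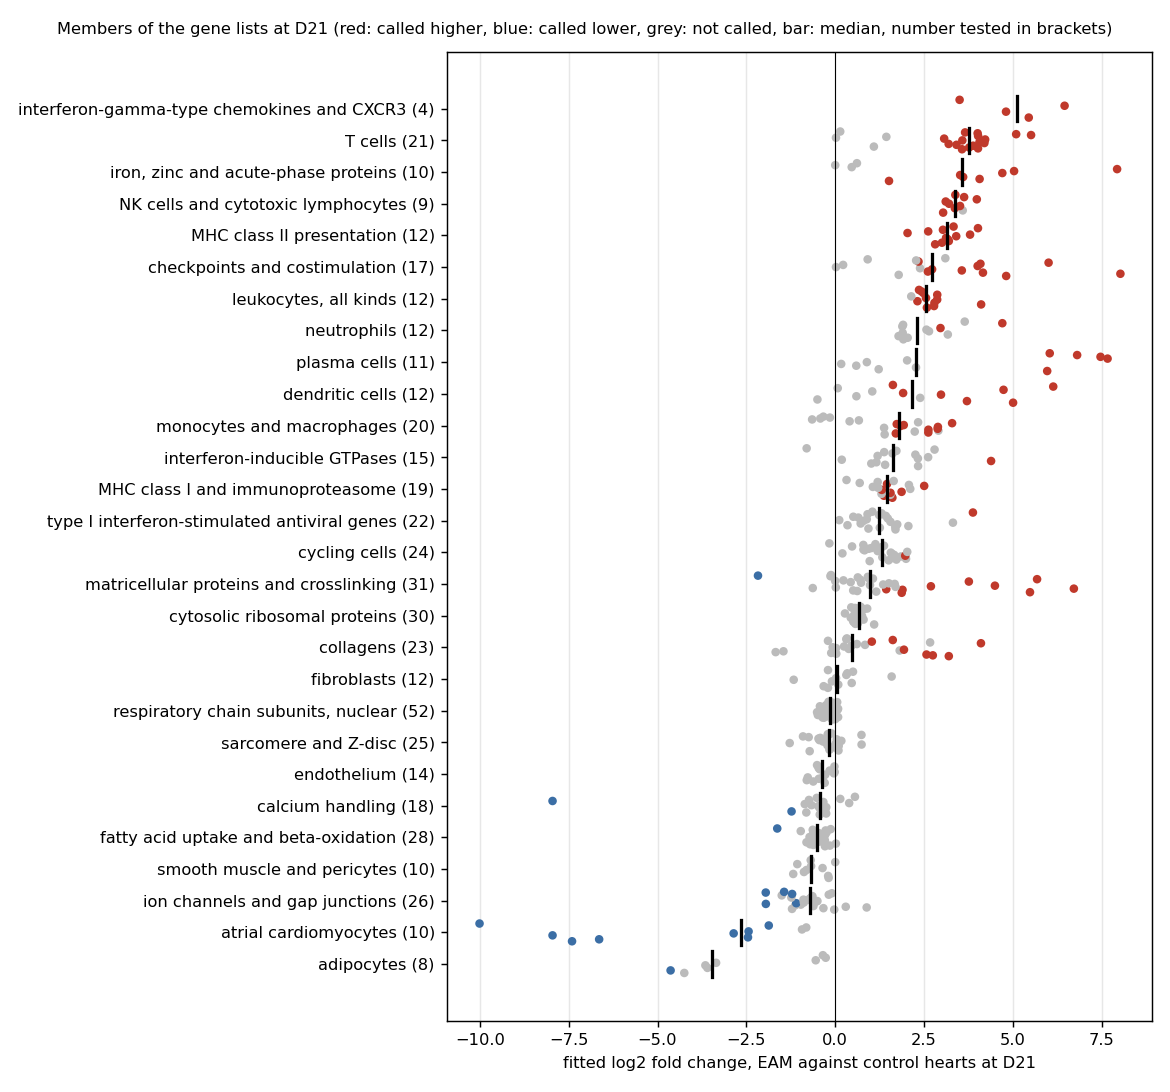
Fitted log2 fold change of EAM against control hearts at D21 (x axis) for the tested members of 28 gene lists (y axis, number tested in brackets). Each point is a gene, red where called higher, blue where called lower and grey where not called, and black bars are list medians, which run from 5.13 for the interferon-gamma-type chemokines to -3.47 for adipocyte genes.

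Leukocyte genes were higher in EAM hearts. Of 12 genes used by leukocytes of all kinds, 11 were called higher and 0 lower, with a median log2 fold change of 2.57 (2.81 without EAM replicate 3). Ptprc, which encodes the pan-leukocyte antigen CD45, was measured at 26.6, 18.3, 15.0 and 29.2 CPM in the controls and 152, 96.0, 48.2 and 237 CPM in the EAM hearts. Every EAM heart lay above every control, EAM replicate 4 being highest and replicate 3 lowest, and the log2 fold change was 2.58 ± 0.46 (SE, adjusted p = 0.00774). Lcp1, an actin-bundling protein of blood cells, followed the same order at 70.6, 66.7, 50.4 and 85.1 CPM in the controls and 435, 269, 125 and 646 CPM in the EAM hearts, with a log2 fold change of 2.43 ± 0.45 (SE, adjusted p = 0.00826). Rac2, the small GTPase of the neutrophil oxidase, rose by 2.56 (adjusted p = 0.00642) on the log2 scale and Laptm5, a lysosomal membrane protein of leukocytes, by 2.32 (adjusted p = 0.00642). The CPM of the 12 genes summed to 268, 239, 185 and 324 in the controls and 1816, 1046, 521 and 2348 in the EAM hearts (24-library scaling), a ratio of means of 5.64 (exact two-sided permutation test, p = 0.0286, the smallest that 4 against 4 can give, and 0.0495 after adjustment over 26 measures). All 15 of the 26 measures without overlap had these same p-values, which therefore do not set one measure above another. The marker lists were chosen with earlier results of these data known. In bulk tissue, more cells of a type and more RNA per cell cannot be told apart, and the same holds for fewer cells and less RNA.

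T cell genes followed, with 17 of 21 genes called higher, 0 lower and a median of 3.77. Cd6, a T cell surface receptor, was measured at 0.253, 0.143, 0.175 and 0.204 CPM in the controls and 10.0, 5.92, 1.71 and 9.43 CPM in the EAM hearts, a log2 fold change of 5.09 ± 0.61 (SE, adjusted p = 0.00453) resting on 16 control reads. Foxp3, the transcription factor of regulatory T cells, was nearly absent from the controls at 0.101, 0.143, 0.131 and 0.102 CPM and reached 4.42, 3.04, 1.65 and 4.74 CPM in the EAM hearts, a log2 fold change of 4.78 ± 0.43 (SE, adjusted p = 0.00254). The groups did not overlap for either gene, and EAM replicate 3 was the lowest of the EAM hearts. Trbc1, a constant segment of the T cell receptor beta chain, rose by 4.20 (adjusted p = 0.00376), and Il7r, the interleukin-7 receptor of resting and memory T cells, by 4.15 (adjusted p = 0.00337). Thy1, also made by fibroblasts and endothelium, gave 1.44 ± 0.33 (SE, adjusted p = 0.0152) and was not called, and Cd28, the costimulatory receptor, gave 0.02 ± 0.13 (SE, adjusted p = 0.9).

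Genes of NK cells and cytotoxic lymphocytes were called higher in 8 of 9 cases, with a median of 3.38. Prf1, the pore-forming protein perforin, was measured at 0.455, 0.286, 0.393 and 0.458 CPM in the controls and 4.17, 2.61, 1.58 and 6.46 CPM in the EAM hearts. Gzma, the protease granzyme A, was measured at 0.961, 0.525, 0.830 and 1.27 CPM in the controls and 7.34, 7.12, 2.70 and 13.9 CPM in the EAM hearts. Neither overlapped between groups, and EAM replicate 4 had the most of both. Their log2 fold changes were 3.21 ± 0.46 (SE, adjusted p = 0.00526) and 3.11 ± 0.50 (SE, adjusted p = 0.00633). Klrk1, the activating receptor NKG2D, gave 3.59 ± 0.75 (SE, adjusted p = 0.0115) and was not called, while with the replicate number as a block its adjusted p was 0.00734.

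Antibody genes were higher in EAM hearts. Of 11 plasma cell genes 5 were called higher, and of 5 B cell genes 2. Igha, the constant region of immunoglobulin A, was measured at 0.253, 0.239, 0.218 and 0.407 CPM in the controls and 70.7, 9.02, 12.6 and 34.7 CPM in the EAM hearts. Ighg1, that of immunoglobulin G1, was measured at 0.152, 0.191, 0 and 0.0509 CPM in the controls and 51.0, 9.45, 8.43 and 14.5 CPM in the EAM hearts. Here EAM replicate 1 was highest, not replicate 4, for both genes, and the log2 fold changes were 6.81 ± 0.83 (SE, adjusted p = 0.00469) and 7.67 ± 0.94 (SE, adjusted p = 0.00469), the latter on 8 control reads. Bank1, a B cell scaffold protein chosen after its values were seen, was measured at 3.80, 2.39, 2.80 and 4.12 CPM in the controls and 1.66, 1.74, 1.05 and 1.31 CPM in the EAM hearts, a log2 fold change of -1.17 ± 0.25 (SE, adjusted p = 0.012) that missed the FDR limit, while it was called lower in DESeq2. Every EAM heart lay below every control for Bank1. Cd22, an inhibitory receptor of B cells, rose by 5.92 (adjusted p = 0.00264). Blnk, an adaptor of B cell receptor signalling that macrophages also use, rose by 1.68 (adjusted p = 0.00846, and 0.0122 with the block). Xbp1, a transcription factor of secreting cells made in many tissues, gave 0.59 ± 0.17 (SE, adjusted p = 0.0314), and Blk, a B cell kinase, -0.01 ± 0.26 (SE, adjusted p = 0.972).

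Myeloid markers were more mixed. Of 20 monocyte and macrophage genes 9 were called higher, with a median of 1.79 and a range from -0.65 to 3.29. Lyz2, lysozyme of macrophages and neutrophils, was measured at 305, 325, 215 and 370.2 CPM in the controls and 2901, 1420.4, 796 and 2371 CPM in the EAM hearts. Ms4a7, a macrophage membrane protein, was measured at 5.06, 4.44, 3.14 and 5.65 CPM in the controls and 58.7, 27.4, 16.9 and 32.5 CPM in the EAM hearts. Both were above all controls in each EAM heart and highest in EAM replicate 1, with log2 fold changes of 2.62 ± 0.39 (SE, adjusted p = 0.00565) and 2.89 ± 0.38 (SE, adjusted p = 0.00473). Csf1r, the receptor that keeps macrophages alive, gave 1.39 ± 0.31 (SE, adjusted p = 0.0142) and was not called. Ccr2, the receptor that brings monocytes out of the marrow, rose by 3.29 (adjusted p = 0.00777).

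Of the 20 monocyte and macrophage genes 16 had a positive log2 fold change and 0 were called lower in the quasi-likelihood test (2 at an unadjusted p under 0.05 and 0 in DESeq2). Vsig4, from the complement list, and Cd163 had a negative one. Vsig4, a complement receptor of resident macrophages, was measured at 9.97, 9.68, 7.86 and 7.84 CPM in the controls and 3.32, 2.28, 3.95 and 2.91 CPM in the EAM hearts. The 4 EAM hearts were close together and below all controls, and the log2 fold change was -1.50 ± 0.19 (SE, adjusted p = 0.00473). At D15 the value had been 0.88, and the difference of the EAM effect, D21 minus D15, was -2.37 (adjusted p = 0.000666). Cd163, which takes up hemoglobin bound to haptoglobin and was chosen after its values were seen, was measured at 31.6, 30.2, 29.7 and 35.1 CPM in the controls and 19.6, 21.4, 21.99 and 17.8 CPM in the EAM hearts, a log2 fold change of -0.65 ± 0.10 (SE, adjusted p = 0.00581) that missed the 2-fold limit, with a difference from D15 of -1.20 (adjusted p = 0.00234, and 0.013 with the block).

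Dendritic cell genes were called higher in 7 of 12 cases. Itgax, the integrin CD11c, was measured at 1.62, 1.72, 1.53 and 2.70 CPM in the controls and 74.5, 41.9, 14.7 and 112 CPM in the EAM hearts, with a log2 fold change of 5.01 ± 0.62 (SE, adjusted p = 0.00469). Ccl22, a chemokine of dendritic cells and macrophages that attracts regulatory and helper T cells, was measured at 0.101, 0.143, 0.131 and 0.407 CPM in the controls and 14.9, 9.62, 1.78 and 29.8 CPM in the EAM hearts, with a log2 fold change of 6.14 ± 0.93 (SE, adjusted p = 0.00575). EAM replicate 3 had less than any other EAM heart of both, yet more than every control. Of 12 neutrophil genes Lcn2 and Csf3r were called, with a median of 2.31, while 11 were higher at an unadjusted p under 0.05 and 7 in DESeq2. Summed, neutrophil genes stood at 6.84 times the control mean, without overlap (exact two-sided permutation test, p = 0.0286, 0.0495 adjusted). Lcn2, the iron-sequestering protein lipocalin 2, was measured at 11.0, 7.20, 2.58 and 11.8 CPM in the controls and 249.6, 88.7, 68.2 and 439.7 CPM in the EAM hearts and rose by 4.70 (adjusted p = 0.00609). Csf3r, the receptor for granulocyte colony-stimulating factor, was measured at 11.8, 5.96, 3.97 and 10.9 CPM in the controls and 73.3, 32.1, 27.6 and 121 CPM in the EAM hearts and rose by 2.96 (adjusted p = 0.00854). S100a9, a calcium-binding protein that neutrophils hold in large amounts, overlapped between the groups at 40.6, 13.8, 4.28 and 33.9 CPM in the controls and 139.9, 36.0, 69.2 and 135 CPM in the EAM hearts, and the controls themselves ranged widely.

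The chemokines that interferon-gamma induces, and their receptor, were all called higher, 4 of 4, with the highest median of the 60 lists at 5.13, although 0 of them were called in limma-voom. Cxcl9 was measured at 2.63, 3.48, 3.01 and 3.31 CPM in the controls and 102, 91.0, 18.2 and 333 CPM in the EAM hearts. Cxcl10 was measured at 0.506, 0.859, 0.742 and 1.02 CPM in the controls and 15.9, 13.7, 4.08 and 54.5 CPM in the EAM hearts. For both ligands, EAM replicate 4 had more than 3 times the level of the next heart and replicate 3 the least, and their log2 fold changes were 5.45 ± 0.83 (SE, adjusted p = 0.00575) and 4.81 ± 0.79 (SE, adjusted p = 0.00653). Cxcl11 rose by 6.46 (adjusted p = 0.00644) and Cxcr3, carried by activated T and NK cells, by 3.50 (adjusted p = 0.00643). Cxcl10 and Cxcl11 overlap a gene on the opposite strand, Art3, in the annotation. Of 20 CC chemokines and receptors 9 were called higher. Ccl5, a T cell and NK cell product, was measured at 0.961, 0.716, 0.742 and 1.58 CPM in the controls and 42.8, 26.9, 6.85 and 69.6 CPM in the EAM hearts, with a log2 fold change of 5.20 ± 0.71 (SE, adjusted p = 0.00477). Il1rn, the secreted antagonist of the interleukin-1 receptor, was measured at 0.810, 0.763, 0.873 and 0.916 CPM in the controls and 81.1, 43.4, 5.07 and 147 CPM in the EAM hearts, with a log2 fold change of 6.35 ± 0.97 (SE, adjusted p = 0.00581).

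Class II antigen presentation genes all rose. All 12 of 12 tested genes of class II presentation were called higher, with a median of 3.15 (3.42 without EAM replicate 3). Ctss, the protease cathepsin S that trims the invariant chain, was measured at 38.3, 40.5, 29.8 and 52.8 CPM in the controls and 953, 443, 183 and 1036 CPM in the EAM hearts. H2-Eb1, a class II beta chain, was measured at 63.4, 58.4, 40.7 and 88.9 CPM in the controls and 729.7, 465, 227 and 887 CPM in the EAM hearts. No EAM heart reached down to the controls for these genes, and the log2 fold changes were 4.02 ± 0.53 (SE, adjusted p = 0.00473) and 3.20 ± 0.43 (SE, adjusted p = 0.00473). Of 19 class I and immunoproteasome genes 8 were called, with a median of 1.46. B2m, the light chain of class I molecules, was measured at 296, 373, 274 and 439 CPM in the controls and 982, 807, 554 and 1090.4 CPM in the EAM hearts, with a log2 fold change of 1.31 ± 0.24 (SE, adjusted p = 0.00768). H2-K1, H2-D1 and H2-T22, class I heavy chains, gave 1.61, 1.59 and 1.56 (adjusted p = 0.00584, 0.00644 and 0.00581). Class I genes are near-identical in sequence, so reads may be split between them.

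Interferon-inducible genes outside antigen presentation were higher in their medians, and how many were called depended on the test. Of 15 interferon-inducible GTPases, which attack the vacuoles of intracellular microbes, 1 was called, with a median of 1.61. Of 22 antiviral genes of the type I interferon response 1 was called, with a median of 1.25. These shares stand beside 4.13 percent of all genes tested. At an unadjusted p under 0.05, 10 of the GTPases and 17 of the antiviral genes were higher, and in DESeq2 7 and 11 were called, but in limma-voom 0 and 0. The 4.13 percent does not apply to these looser limits. Among all 15266 genes tested 4932 had an adjusted p under 0.05 in either direction, and the DESeq2 counts over all genes are given above. The called members were Gbp8, which rose by 4.39 (adjusted p = 0.00984, and 0.0141 with the block), and Zbp1, a sensor of left-handed nucleic acid, which rose by 3.88 (adjusted p = 0.0092). Irgm1, a GTPase that regulates the family, was measured at 38.71, 71.4, 48.2 and 73.4 CPM in the controls and 288, 265, 94.3 and 774 CPM in the EAM hearts. EAM replicate 4 alone exceeded 700 CPM, the 4 EAM hearts lay above the controls, and the log2 fold change was 2.62 ± 0.57 (SE, adjusted p = 0.0133).

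Promoter letters of these genes were read from RefSeq. The interferon-stimulated response element (ISRE), searched as GAAA, any 2 bases and GAAA on both strands from 250 bases before to 50 bases after each gene start, stood in 34 of 457 promoters of the higher genes (7.44%), in 0 of 124 of the lower genes and in 350 of 11116 of all genes tested (3.15%), counting the tested genes whose symbol matched the table. Over the whole table it stood in promoters of 943 of 27025 genes (3.49%). It was found in 8 of 9 promoters of the GTPase list, 10 of 16 of the antiviral list, 5 of 17 of the class I list, 1 of 9 of the class II list and 1 of 3 of the interferon-gamma-type chemokines. Other motifs searched on both strands stood in the following shares of the higher, the lower and all tested genes. They were the gamma-activated site (GAS, TTCNNNGAA) at 8.75%, 4.84% and 6.85%, the MEF2 site (CTA, any 4 bases and TAG) at 2.19%, 0.806% and 3.09%, the site of estrogen-related receptors (AAGGTCA) at 5.25%, 3.23% and 3.12%, the E-box (CACGTG) at 7.44%, 8.87% and 10.1%, and the GC box (GGGCGG) at 39.6%, 46.8% and 62.6%. In 50 promoters of tested genes both ISRE and GAS letters were present, and in 11 of them the letters overlapped. The following stretches of 60 bases, from GRCm38.p6, are printed so that the element can be seen in a chemokine (Cxcl10, chr5:92349068-92349127, minus strand), GTPases (Gbp2, chr3:142620579-142620638, plus strand, and Irgm1, chr11:48871421-48871480, minus strand), antiviral genes (Isg15, chr4:156200850-156200909, minus strand, and Ifit1, chr19:34640779-34640838, plus strand) and class I genes (H2-T23, chr17:36032791-36032850, minus strand, and B2m, chr2:122147523-122147582, plus strand). They read 5′ to 3′ on the strand of the gene, with ISRE letters in capitals, and where the match lies on the other strand the capitals show its complement, TTTC, 2 bases and TTTC.
Cxcl10: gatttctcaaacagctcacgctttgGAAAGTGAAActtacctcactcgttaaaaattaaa
Gbp2: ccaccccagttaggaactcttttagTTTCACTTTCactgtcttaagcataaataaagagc
Irgm1: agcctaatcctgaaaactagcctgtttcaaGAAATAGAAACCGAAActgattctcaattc
Isg15: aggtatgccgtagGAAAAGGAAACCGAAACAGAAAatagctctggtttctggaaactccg
Ifit1: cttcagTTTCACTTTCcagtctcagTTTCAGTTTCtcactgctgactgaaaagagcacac
H2-T23: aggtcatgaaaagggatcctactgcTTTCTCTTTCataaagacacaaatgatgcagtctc
B2m: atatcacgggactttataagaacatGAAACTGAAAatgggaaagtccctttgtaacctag
In the promoters of Irgm1, Isg15 and Ifit1 more than one match stood in the stretch, and in Irgm1 and Isg15 they overlapped. Of the genes shown, Cxcl10, H2-T23 (1.87, adjusted p = 0.00939) and B2m were called higher, and Gbp2 (2.33, adjusted p = 0.0169), Irgm1, Isg15 (1.69, adjusted p = 0.0504) and Ifit1 (1.70, adjusted p = 0.0386) were not. Isg15 makes a ubiquitin-like modifier, and Ifit1 binds viral RNA. Gbp2, Isg15, Ifit1 and H2-T23 were chosen after their values were seen. A match in these letters is a description and not a shown binding site.

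The 15 largest increases, among genes that averaged 1 CPM or more and have no near-identical copy, included enzymes and secreted proteins that stimulated macrophages can make. Arg1 (GRCm38, chr10:24915221-24927484), the arginine-cleaving enzyme arginase 1, was measured at 0.0506, 0.239, 0.175 and 0.356 CPM in the controls and 123, 31.6, 0.790 and 139 CPM in the EAM hearts. Its 17 control reads over 4 libraries set a pooled ratio of 381 (95% counting interval 238 to 654), and the fitted log2 fold change was 8.45 ± 1.53 (SE, adjusted p = 0.00778). Pdcd1lg2, the checkpoint ligand PD-L2, was measured at 0.0506, 0, 0.131 and 0 CPM in the controls and 14.1, 7.77, 0.790 and 33.9 CPM in the EAM hearts. Both genes were below 1 CPM in EAM replicate 3, so the change of the mean rests on the other 3 EAM hearts. Saa3, an acute-phase serum amyloid, was measured at 0.708, 0.811, 0.349 and 0.814 CPM in the controls and 259, 84.6, 18.6 and 294 CPM in the EAM hearts, with a log2 fold change of 7.94 ± 0.98 (SE, adjusted p = 0.00469). Acod1, which makes the immune metabolite itaconate, was measured at 0.152, 0.429, 0.218 and 0.560 CPM in the controls and 20.2, 17.3, 2.44 and 91.1 CPM in the EAM hearts, with a log2 fold change of 6.58 ± 1.16 (SE, adjusted p = 0.00731). F10 and F7, coagulation factors X and VII, rose by 7.98 and 6.97 (adjusted p = 0.00516 and 0.00473). F10 was measured at 0.304, 0.0477, 0.0437 and 0.305 CPM in the controls and 56.7, 23.7, 4.34 and 92.1 CPM in the EAM hearts, and again EAM replicate 3 was the lowest of the EAM hearts but above all controls. The others of the 15 were AA467197, Sprr1a, Igha, Spp1, Muc15, Mmp12, Cxcl11, Il1rn and Izumo1r, with fitted log2 fold changes between 6.17 and 7.78. Of these, Izumo1r rested on 2 control reads, both in replicate 1 (pooled ratio 95.5, 95% counting interval 26.4 to 788), AA467197 and Sprr1a on 7 control reads each, Muc15 on 13 and Cxcl11 on 15.

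Of 17 genes of T cell checkpoints and costimulation 10 were called higher, with a median of 2.73. Pdcd1, the inhibitory receptor PD-1, was measured at 0.101, 0.0477, 0.0873 and 0.102 CPM in the controls and 4.07, 1.90, 0.856 and 3.26 CPM in the EAM hearts. Icos, an inducible costimulator of T cells, was measured at 0.405, 0.191, 0.393 and 0.661 CPM in the controls and 9.50, 5.16, 2.30 and 9.77 CPM in the EAM hearts. The groups did not overlap for either, and the log2 fold changes were 4.81 ± 0.60 (SE, adjusted p = 0.00469), on 7 control reads, and 4.01 ± 0.54 (SE, adjusted p = 0.00473). Cd274, the ligand PD-L1, was measured at 22.4, 30.2, 19.0 and 26.3 CPM in the controls and 65.8, 56.2, 18.5 and 197 CPM in the EAM hearts, where EAM replicate 3 fell below the lowest control, and gave 1.79 ± 0.60 (SE, adjusted p = 0.0495).

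Genes of iron, zinc and the acute phase were called higher in 7 of 10 cases with a median of 3.56. Mt2, the zinc-binding metallothionein 2, was measured at 9.16, 12.4, 5.28 and 9.87 CPM in the controls and 199, 95.8, 50.9 and 268 CPM in the EAM hearts, with a log2 fold change of 4.07 ± 0.54 (SE, adjusted p = 0.00473). Serpina3n, a secreted protease inhibitor of the acute phase, was measured at 28.9, 27.0, 15.8 and 31.3 CPM in the controls and 423, 232, 118 and 478 CPM in the EAM hearts, with a log2 fold change of 3.60 ± 0.45 (SE, adjusted p = 0.00473). All 4 EAM hearts exceeded all controls for both. Cp, the copper-carrying ferroxidase ceruloplasmin, gave 0.47 ± 0.23 (SE, adjusted p = 0.145) and overlapped between the groups.

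Innate immune receptors and lysosomal genes were called in part. Of 23 complement genes and receptors 12 were called higher and 1, Vsig4, lower. Cfb, complement factor B, rose by 3.55 (adjusted p = 0.00588), and the 3 chains of C1q, which binds antibody and debris, by 1.84 (C1qa), 1.93 (C1qb) and 1.73 (C1qc), with adjusted p of 0.00939, 0.00778 and 0.0092. C3, the central component, gave 1.19 ± 0.31 (SE, adjusted p = 0.0224, and 0.00738 with the block). Of 6 Fc receptors 4 were called, among them Fcgr4, an activating receptor for immunoglobulin G, at 3.19, 2.53, 1.40 and 3.92 CPM in the controls and 53.4, 25.8, 9.81 and 94.6 CPM in the EAM hearts and a log2 fold change of 4.06 ± 0.69 (SE, adjusted p = 0.00688). Every EAM heart exceeded every control, with replicate 4 highest. Of 24 lysosomal genes 8 were called. Atp6v0d2, a proton pump subunit of macrophages and osteoclasts, was measured at 0.202, 0.286, 0.262 and 0.458 CPM in the controls and 18.7, 4.02, 5.20 and 4.86 CPM in the EAM hearts, where EAM replicate 1 stood far above the others, with a log2 fold change of 4.74 ± 0.64 (SE, adjusted p = 0.00473). Of 14 scar-associated macrophage genes 8 were called, with medians of 1.34 at D21 and 1.43 at D15. Lgals3, the sugar-binding protein galectin 3, was measured at 6.17, 6.11, 3.45 and 8.75 CPM in the controls and 218, 90.4, 45.8 and 221 CPM in the EAM hearts, with a log2 fold change of 4.56 ± 0.56 (SE, adjusted p = 0.00469).

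Of 17 genes of the interleukin-1 family and inflammasome 5 were called higher. Mefv, the inflammasome protein pyrin, rose by 4.98 (adjusted p = 0.00575), beside Il1rn and the ligands Il1a and Il1b (4.67 and 4.04, adjusted p = 0.00995 and 0.00719). Of 11 interleukin-6 family genes 2 were higher and 1 lower. Osm, the cytokine oncostatin M, was measured at 0.202, 0.334, 0.0873 and 0.356 CPM in the controls and 3.17, 1.30, 1.12 and 5.26 CPM in the EAM hearts, a log2 fold change of 3.46 ± 0.63 (SE, adjusted p = 0.00796) on 20 control reads. Cntfr, the receptor of ciliary neurotrophic factor, was measured at 13.5, 15.7, 20.4 and 11.6 CPM in the controls and 6.44, 4.13, 5.66 and 4.80 CPM in the EAM hearts, a log2 fold change of -1.54 ± 0.21 (SE, adjusted p = 0.00491). The 4 EAM hearts were above the controls for Osm and below them for Cntfr.

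Extracellular matrix genes rose in part. Of 23 collagen genes 7 were called higher and 0 lower, with a median of 0.46, and of 31 matricellular and crosslinking genes 9 were higher and 1 lower. Col1a1, a chain of the main scar collagen, was measured at 291, 208, 258 and 256 CPM in the controls and 2745, 1494, 937 and 4126 CPM in the EAM hearts. Col3a1, the collagen of early scar, was measured at 830.0, 597, 718 and 856 CPM in the controls and 5885, 3637, 1718 and 6590.0 CPM in the EAM hearts. Replicate 4 led and replicate 3 trailed among EAM hearts for both, all of them above the controls, and the log2 fold changes were 3.20 ± 0.44 (SE, adjusted p = 0.00477) and 2.57 ± 0.40 (SE, adjusted p = 0.00584). Postn, periostin of activated fibroblasts, was measured at 109, 92.2, 97.7 and 114 CPM in the controls and 505, 338, 269.6 and 399 CPM in the EAM hearts, with a log2 fold change of 1.87 ± 0.19 (SE, adjusted p = 0.00315). Sparc, a matrix protein that binds collagen, gave 1.44 ± 0.28 (SE, adjusted p = 0.00916, and 0.0157 with the block). Spp1, osteopontin, was measured at 1.72, 1.62, 1.40 and 1.98 CPM in the controls and 257, 94.7, 5.27 and 351 CPM in the EAM hearts, with a log2 fold change of 6.72 ± 1.14 (SE, adjusted p = 0.00688, and 0.0111 with the block). Mmp12, the macrophage elastase, was measured at 1.52, 1.38, 0.830 and 2.14 CPM in the controls and 150.3, 61.5, 17.8 and 307 CPM in the EAM hearts, with a log2 fold change of 6.52 ± 0.92 (SE, adjusted p = 0.00512). Of 23 metalloproteinases and inhibitors 7 were called higher, and Timp1, a secreted inhibitor of them, rose by 5.43 (adjusted p = 0.00653). Further called matrix genes were Tnc, tenascin C, Lox, which crosslinks collagen, and Cthrc1, a protein of activated fibroblasts, at 5.48, 4.50 and 5.68 (adjusted p = 0.00721, 0.00682 and 0.00472, and 0.0133 for Tnc with the block). Comp, cartilage oligomeric matrix protein, was the one matricellular gene called lower, at 17.3, 15.9, 18.6 and 17.8 CPM in the controls and 3.67, 6.03, 2.57 and 3.09 CPM in the EAM hearts. The groups did not overlap, its log2 fold change was -2.17 ± 0.25 (SE, adjusted p = 0.00414), and the difference from D15 was -2.26 (adjusted p = 0.00116). Of 12 general fibroblast markers 0 were called higher and 0 lower in the quasi-likelihood test, with a median of 0.06. At an unadjusted p under 0.05 these were 3 and 1, and in DESeq2 1 and 1. Summed, they stood at 0.838 times the control mean, without overlap (exact two-sided permutation test, p = 0.0286, 0.0495 adjusted). A sum rests mostly on the most abundant members, and 7 of the 12 genes had a positive log2 fold change. Against all 12 controls the sum missed an adjusted 0.05 (exact two-sided permutation test, 0.0571 adjusted).

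Atrial genes were among the largest decreases. Of 10 atrial cardiomyocyte genes 8 were called lower, with a median of -2.66 (-2.72 without EAM replicate 3). Bmp10 (GRCm38, chr6:87428994-87437677), a ligand of the bone morphogenetic protein family made by atrial muscle, was measured at 219, 216, 246 and 99.6 CPM in the controls and 0.151, 0.217, 0.0658 and 0.286 CPM in the EAM hearts. The 4 EAM libraries held 13 reads in all, a pooled ratio of 1066 (95% counting interval 623 to 2002), and the fitted log2 fold change was -10.01 ± 0.45 (SE, adjusted p = 5.59e-05). Sln, sarcolipin, an inhibitor of the calcium pump used in atria, was measured at 149, 219, 209 and 135 CPM in the controls and 0.101, 0.435, 2.24 and 0.286 CPM in the EAM hearts, with a log2 fold change of -7.95 ± 0.64 (SE, adjusted p = 0.00161). Myl7, the atrial regulatory light chain of myosin, was measured at 415, 603, 611 and 386 CPM in the controls and 0.654, 0.598, 10.6 and 0.514 CPM in the EAM hearts, with a log2 fold change of -7.41 ± 1.03 (SE, adjusted p = 0.00491). EAM replicate 3 kept the most Sln and Myl7 of the EAM hearts, while no EAM heart came near the controls. Myl4, the atrial essential light chain, gave -6.64 ± 0.64 (SE, adjusted p = 0.00264). Mybphl, a myosin-binding protein of atria, gave -7.15 ± 0.47 (SE, adjusted p = 0.000492). Besides Nppa, Stard10, a lipid transfer protein, Dkk3, of the dickkopf family, and Tbx5, a transcription factor of heart development, were the other called members of the list, at -2.86, -2.44 and -1.87 (adjusted p = 0.00337, 0.00545 and 0.00469). Nppa, atrial natriuretic peptide, was measured at 639, 845, 730.4 and 550.1 CPM in the controls and 178, 51.0, 98.5 and 177 CPM in the EAM hearts, with a log2 fold change of -2.45 ± 0.38 (SE, adjusted p = 0.00588, and 0.0122 with the block).

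The level of these genes also varied between control groups of the series. Over all 24 libraries scaled together, Bmp10 was measured at 1.14, 0.154, 0 and 0.793 CPM in the D10 controls, 123, 158, 171 and 0.353 CPM in the D15 controls and 220.0, 217, 247 and 100.3 CPM in the D21 controls. In the D21 EAM hearts Bmp10 was measured at 0.148, 0.218, 0.0669 and 0.276 CPM, so 4 of 4 D10 controls and D15 control replicate 4 were also near 0. Myl7 ran between 46.0 and 613 CPM in the 20 other hearts and between 0.497 and 10.8 CPM in the D21 EAM hearts. Of the 10 atrial genes, Myl7, Myl4 and Sln were below all 20 other hearts in every D21 EAM heart. Genes called lower at D21 had a median log2 fold change of -1.94 against the D21 controls, -1.52 against the D15 controls (155 tested) and -0.94 against the D10 controls (151 tested), and 70 of those 151 were at least 2-fold lower than the D10 controls. For the higher genes the corresponding medians were 2.71, 2.81 and 2.30. Nppa, Gja5 and Dkk3 changed sign against the D10 controls (0.50, 0.37 and 0.14). Of the 177 lower genes 124 (70.1%) were at their lowest among the 4 D15 controls in replicate 4, the one with few atrial transcripts, compared with 24.2% of all genes tested. How much atrial tissue each portion of heart contained is stated neither in the labels nor in the methods, and its part in the lower genes was not tested.

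**Figure D3:**
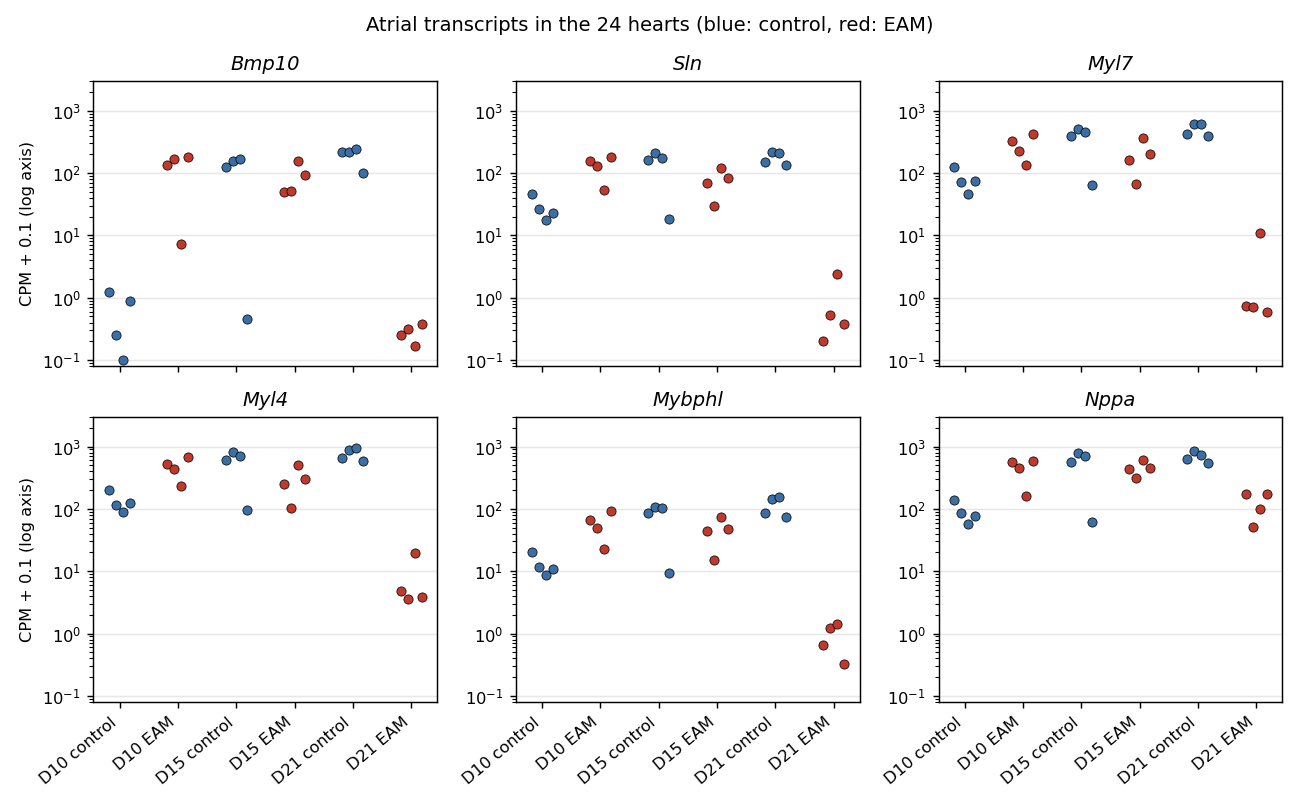
Level in CPM plus 0.1 (log axes, scaled over all 24 libraries) of 6 atrial transcripts in the 4 hearts of each group, blue for control and red for EAM; each point is a heart. Bmp10 is low in all D10 controls, in D15 control replicate 4 and in all D21 EAM hearts, and Myl7 is at most 10.8 CPM in the D21 EAM hearts and at least 46.0 CPM in every other heart.

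The 15 largest decreases also held Uts2b, Hamp, Cilp2, Pck1, Cd207, Sbk3, Tmem163, Fgf12, Cpne5 and Lmntd1. Hamp, the iron hormone hepcidin, was measured at 14.9, 11.1, 18.3 and 9.77 CPM in the controls and 0.302, 0.272, 0.132 and 0.0571 CPM in the EAM hearts, with a log2 fold change of -6.06 ± 0.39 (SE, adjusted p = 0.000492). Cd207, the lectin langerin of Langerhans cells and some dendritic cells, was measured at 7.03, 6.34, 5.72 and 6.56 CPM in the controls and 0.101, 0.217, 0.197 and 0.114 CPM in the EAM hearts, with a log2 fold change of -5.31 ± 0.24 (SE, adjusted p = 5.59e-05). Neither gene overlapped between groups, and the controls lay close together for Cd207. Hamp and Sbk3 also varied between control groups (CPM scaled over the whole series). Hamp ran from 1.65 to 3.71 CPM in the D10 controls and from 9.84 to 18.3 CPM in the D21 controls. Sbk3 ran from 11.6 to 32.9 CPM in the D10 controls and from 106 to 227 CPM in the D21 controls. D15 control replicate 4 had 1.53 CPM of Hamp and 14.2 CPM of Sbk3. Every D21 EAM heart lay below all other hearts for both genes. The cause of this variation was not tested. Uts2b, a urotensin peptide, had no read in any EAM heart against 3.04, 10.5, 5.42 and 2.19 CPM in the controls, at least 126-fold lower when 3 counts over the EAM group are taken as the limit. Pck1, an enzyme that makes glucose and glycerol precursors, had 3 reads in the EAM hearts, a pooled ratio of 90.8 (95% counting interval 31.1 to 440.3). Fgf12, a regulator of sodium channels, gave -5.46 ± 0.50 (SE, adjusted p = 0.00264), and Cilp2, a matrix protein related to one of cartilage, -6.37 ± 0.42 (SE, adjusted p = 0.000492).

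Of 8 fat cell genes 1 was called lower, beside 1.16 percent of all genes tested, and the median was -3.47. At an unadjusted p under 0.05 7 were lower, and in DESeq2 5 were called lower. Plin1, which coats the fat droplets of adipocytes, was measured at 4.35, 7.97, 3.80 and 2.59 CPM in the controls and 0, 0.598, 0.0658 and 0.0571 CPM in the EAM hearts, with a log2 fold change of -4.63 ± 0.76 (SE, adjusted p = 0.00656). Adipoq, the fat hormone adiponectin, named after its values were seen, was measured at 2.68, 7.11, 2.14 and 2.29 CPM in the controls and 0.101, 0.598, 0 and 0 CPM in the EAM hearts and gave -4.25 ± 0.85 (SE, adjusted p = 0.0104, and 0.00578 with the block). In both genes 1 EAM heart, replicate 2, held most of the reads of its group. Mast cell genes differed in sign, with a median of -0.34 over 6 genes and a summed CPM (24-library scaling) of 1.28 times the control mean, overlapping between groups. Hdc, histidine decarboxylase, named after its values were seen, gave 1.90 ± 0.51 (SE, adjusted p = 0.0245) and was called higher in DESeq2. Of the list 1 gene was called lower, beside 1.16 percent of all genes tested, Mcpt4, a protease of connective tissue mast cells, at 1.72, 1.81, 2.45 and 2.39 CPM in the controls and 0.654, 0.489, 0.527 and 0.743 CPM in the EAM hearts and a log2 fold change of -1.78 ± 0.23 (SE, adjusted p = 0.00473).

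General lists of heart muscle genes held no called member. Of 18 cardiomyocyte genes 0 were called higher and 0 lower (median -0.16), of 25 sarcomere genes 0 and 0 (median -0.16), and of 52 nuclear-encoded respiratory chain subunits 0 and 0 (median -0.13). Myh6, which encodes the alpha myosin heavy chain and supplies the immunizing peptide, was measured at 11934, 11982, 12123 and 10417 CPM in the controls and 4991, 7522, 11521 and 4227 CPM in the EAM hearts. EAM replicate 3 was within the control range while replicates 1, 2 and 4 were below it, and the log2 fold change was -0.72 ± 0.32 (SE, adjusted p = 0.114). In the 3 lists in that order, 2, 5 and 1 genes were lower at an unadjusted p under 0.05, 1, 1 and 0 were called lower in DESeq2 and 0 in limma-voom. At the same unadjusted limit 0, 2 and 0 were higher. Ttn, the giant spring protein titin, gave -1.28 ± 0.28 (SE, adjusted p = 0.0127), and Pln, the calcium pump inhibitor phospholamban, -0.25 ± 0.23 (SE, adjusted p = 0.406). The summed CPM of the cardiomyocyte genes was 60235, 59497, 57605 and 57281 in the controls and 37013, 50631, 64753 and 29836 in the EAM hearts (24-library scaling, exact two-sided permutation test, p = 0.171).

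A few metabolic and electrical genes were called lower. Of 28 genes of fatty acid uptake and oxidation 14 were lower at an unadjusted p under 0.05, with a median of -0.52. This count stands beside 4932 of all 15266 genes tested at an adjusted p under 0.05 in either direction. Of the list 1 gene was called lower, beside 1.16 percent of all genes tested. It was Acot1, an acyl-CoA thioesterase, at 14.1, 16.9, 11.2 and 7.89 CPM in the controls and 4.83, 3.26, 5.53 and 2.57 CPM in the EAM hearts and a log2 fold change of -1.63 ± 0.30 (SE, adjusted p = 0.00848). Pdk4, the kinase that shuts off pyruvate oxidation, was measured at 797, 1049, 1062 and 611 CPM in the controls and 350.2, 245, 235 and 432 CPM in the EAM hearts, with a log2 fold change of -1.48 ± 0.25 (SE, adjusted p = 0.00696, and 0.0207 with the block). Arntl, the clock transcription factor BMAL1, was measured at 25.6, 36.3, 39.4 and 38.5 CPM in the controls and 11.3, 7.82, 16.3 and 14.6 CPM in the EAM hearts, with a log2 fold change of -1.49 ± 0.24 (SE, adjusted p = 0.00633). For these 3 genes each EAM heart lay below each control. Of 26 ion channel and gap junction genes 5 were called lower. They were Gja5, a gap junction protein of atrial and conducting muscle (-1.21, adjusted p = 0.00473), Kcnj3 and Kcnj5, which form the acetylcholine-gated potassium channel of the atria (-1.95 and -1.10, adjusted p = 0.00926 and 0.00692), and the T-type calcium channels Cacna1g and Cacna1h (-1.44 and -1.95, adjusted p = 0.00954 and 0.00813). Casq1, a calcium store protein, gave -1.23 ± 0.23 (SE, adjusted p = 0.00826, and 0.0106 with the block). Ankrd1, a stress-responsive protein of the Z-disc, gave 0.74 ± 0.15 (SE, adjusted p = 0.0108) and was not called.

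Vessel genes were not called. Of 14 endothelial genes 0 were called lower, with a median of -0.38, and of 10 smooth muscle and pericyte genes 0, with a median of -0.68. At an unadjusted p under 0.05, 7 and 7 were lower, and in DESeq2 0 and 2 were called. Of all 15266 genes tested, 4932 had an adjusted p under 0.05 in either direction in the quasi-likelihood test. Summed, endothelial genes stood at 0.767 times and smooth muscle genes at 0.641 times the control mean, without overlap (exact two-sided permutation test, p = 0.0286 for each, 0.0495 adjusted). Of 30 ribosomal protein genes 0 were called, 29 were higher at an unadjusted p under 0.05 and 1 in DESeq2, with a median of 0.66. Of 24 genes of dividing cells 1 was called higher, beside 4.13 percent of all genes tested. It was Aurkb, a mitotic kinase, at 1.77, 1.48, 2.36 and 2.54 CPM in the controls and 6.49, 7.06, 4.21 and 14.3 CPM in the EAM hearts and a log2 fold change of 1.97 ± 0.38 (SE, adjusted p = 0.0092, and 0.0111 with the block). The list had a median of 1.32, and 22 of its genes were higher at an unadjusted p under 0.05 and 16 in DESeq2, but 0 in limma-voom. Summed, it stood at 1.93 times the control mean, without overlap (exact two-sided permutation test, p = 0.0286, 0.0495 adjusted).

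The same question at D15, between 4 other EAM and 4 other control hearts, gave 2838 higher genes (18.1 percent of 15693 tested) and 2019 lower genes (12.9 percent). Of the 630 genes higher at D21, 611 were also higher at D15 (97.0% of the D21 and 21.5% of the D15 genes), and of the 177 lower genes 51 were also lower (28.8% of the D21 and 2.53% of the D15 genes). The higher genes had a median log2 fold change of 2.71 at D21 and 3.60 at D15, and 552 of the 629 tested on both days changed less at D21. For the lower genes the medians were -1.94 at D21 and -0.89 at D15 (175 tested). A test of the difference itself, over all 24 samples, found a higher effect at D21 for 447 genes (2.74 percent of 16318) and a lower effect for 150 (0.919 percent). With total counts in place of TMM the first count fell and the second rose until they were nearly equal, as given in the last section. With the block the counts of higher and lower effects were 51 and 63. They moved by over 1.5 times without D21 EAM replicate 2 (163 and 77), 3 (160 and 81) or 4 (1120 and 446), D21 control replicate 1 (258 and 99) or 3 (218 and 86), D15 control replicate 2 (259 and 91) or 4 (271 and 99), or D15 EAM replicate 4 (206 and 82), and the first of them without D15 EAM replicate 1 (265), 2 (212) or 3 (945). Of the 630 genes called higher at D21, 3 had a higher effect than at D15, and of the 177 called lower 45 had a lower one.

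**Figure D4:**
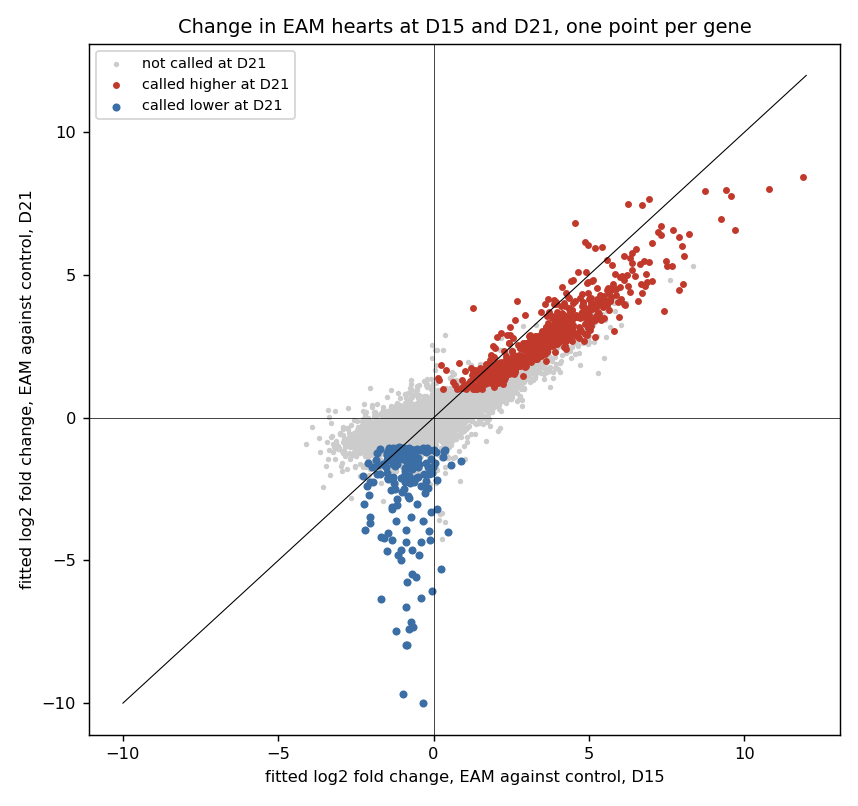
Fitted log2 fold change of EAM against control hearts at D15 (x axis) and D21 (y axis), one point per gene, red where called higher at D21, blue where called lower and grey where not called; the diagonal marks equal change. Red points lie mostly under the diagonal, while blue points reach -10.01 at D21 (Bmp10, -0.33 at D15).

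Genes with a weaker decrease made up most of the first group. Of the 447 genes with a higher effect at D21, 409 were called lower at D15 and 3 were called higher at D21, with medians of -0.16 at D21 and -1.38 at D15. For the respiratory chain the median was -1.20 at D15 with 47 of 52 called lower, and 29 of its genes passed the test of the difference, and 0 of those with the block. For sarcomere genes the D15 median was -1.02, with 13 of 25 called lower and 9 past the test of the difference, 1 of them with the block. Tpm1, tropomyosin, went from -0.93 at D15 to 0.10 at D21 (difference 1.05, adjusted p = 0.00174, and 0.013 with the block), and Acta1, skeletal alpha actin, from -0.68 to 0.74 (difference 1.45, adjusted p = 0.0013). Dct, dopachrome tautomerase, had among the largest such differences, 3.45 (adjusted p = 0.00218). Among genes past the limits that averaged 1 CPM or more and have no near-identical copy, the 5 largest differences in the other direction were as follows. They were Bmp10 (-9.66), Sln (-7.07), Myl7 (-6.58), Mybphl (-6.42) and Hamp (-6.00). Uts2b gave -8.71 (adjusted p = 0.0118) and missed the FDR limit.

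Gpnmb, Cd209a and Ddit3 were called higher at D21 and not at D15. Gpnmb, a glycoprotein of lipid-laden and scar macrophages, was measured at 2.78, 1.81, 1.88 and 2.75 CPM in the controls and 33.0, 15.3, 15.9 and 8.57 CPM in the EAM hearts, with log2 fold changes of 2.98 ± 0.41 (SE, adjusted p = 0.00477) at D21 and 2.16 at D15. Cd209a, a lectin of monocyte-derived dendritic cells, was measured at 1.72, 1.14, 0.830 and 1.58 CPM in the controls and 3.72, 5.43, 4.34 and 6.34 CPM in the EAM hearts, with 1.91 ± 0.28 (SE, adjusted p = 0.00526) at D21 and 0.83 at D15. Ddit3, the stress factor CHOP, was measured at 13.3, 13.2, 12.3 and 12.5 CPM in the controls and 25.4, 23.9, 24.4 and 30.3 CPM in the EAM hearts, with 1.02 ± 0.10 (SE, adjusted p = 0.00315) at D21 and 0.29 at D15. For Ddit3 the EAM hearts were within a narrow band. Its difference between the days met the FDR limit (0.75, adjusted p = 0.00212, and 0.0125 with the block) but was short of 2-fold, so it was not past the limits. For Gpnmb (0.83, adjusted p = 0.695, and with the block -0.18, of the opposite sign) and Cd209a (1.10, adjusted p = 0.251) the difference missed the FDR limit.

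The 4 EAM hearts did not respond alike. A list score, the mean of log2(CPM + 1) over a list minus the mean of the 4 controls, was 2.95, 2.11, 1.06 and 3.34 in EAM replicates 1 to 4 for leukocyte genes, 3.34, 3.09, 1.57 and 4.70 for the interferon-gamma-type chemokines and 3.13, 2.42, 1.35 and 3.43 for class II presentation. Replicate 4 was highest and replicate 3 lowest in each. For plasma cell genes the scores were 3.36, 1.43, 1.18 and 2.26, with replicate 1 highest. Cardiomyocyte genes ran the other way, at -0.57, -0.14, 0.16 and -0.89, and so did fatty acid genes, at -0.71, -0.31, -0.12 and -1.09, so that the heart with the most leukocyte RNA had the least heart muscle RNA. The order 4, 1, 2, 3 from highest to lowest held in 26 of 60 lists and its reverse in 14, and replicate 3 was lowest in all 22 lists with at least 5 genes called higher. Atrial genes had another order, at -3.99, -4.20, -3.49 and -4.25, and were low in all 4. The share of counts on mitochondrially encoded genes was 3.91, 5.50, 6.77 and 4.34% in the EAM hearts and 5.45, 5.79, 5.45 and 5.54% in the controls (exact two-sided permutation test, p = 0.486), again highest in replicate 3.

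**Figure D5:**
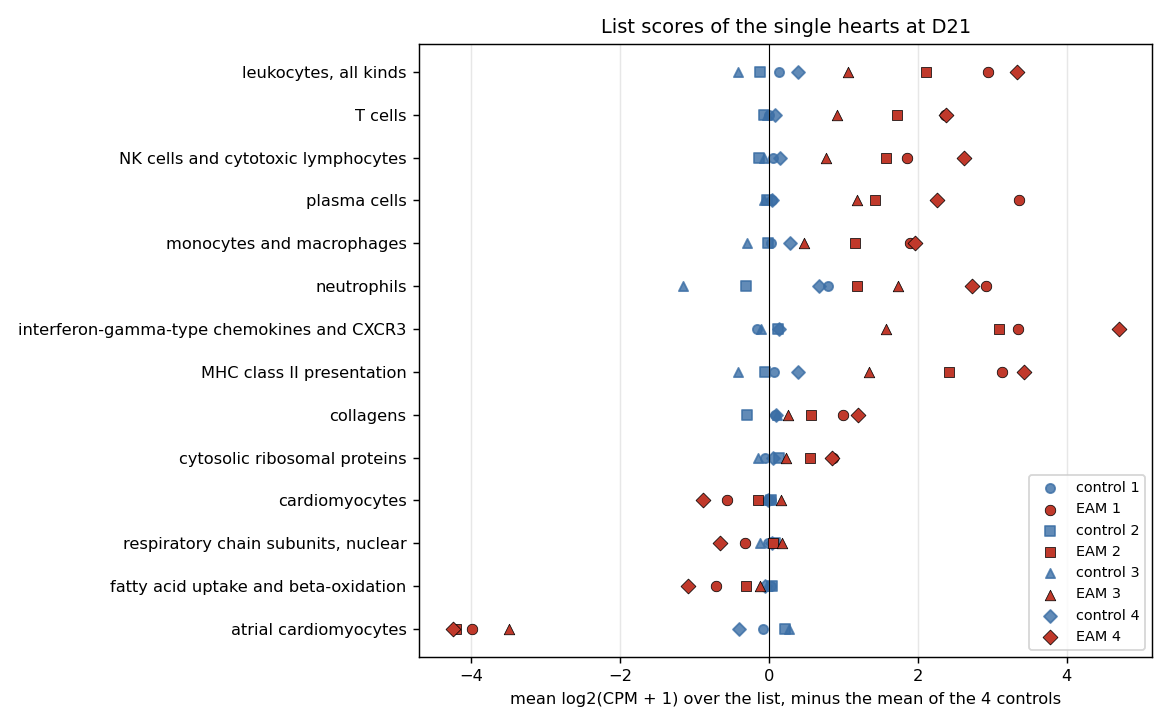
List score of each heart, the mean of log2(CPM + 1) over the list minus the mean of the 4 controls (x axis), for 14 gene lists (y axis); blue symbols are the 4 controls, red symbols the 4 EAM hearts, and the shape gives the replicate. EAM replicate 3 is the EAM heart nearest to the controls for leukocyte genes at 1.06, and EAM hearts are at -3.49 or lower for atrial genes.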

How the data were processed

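RNA was extracted from snap-frozen heart tissue, mRNA libraries were made with a directional kit and sequenced. Per the labels, the authors aligned reads to GRCm38 with HISAT2 2.0.4, used Picard and deposited featureCounts gene counts, whole-number counts without normalization; the strand setting of the counting is stated nowhere in these sources. Without it, reads of Cxcl10, Cxcl11, Foxp3, Nppa, Gja5, Kcnj3, Timp1, Pdcd1lg2, Ddit3, Cp, Csf1r, Pln and Tmem163 cannot be told from those of an expressed gene overlapping on the other strand, and Gbp8 overlaps Gbp9 and Gbp4.

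The 8 libraries of D21 were fitted by group with TMM scaling and the quasi-likelihood test in edgeR 4.0.16 (R 4.3.3), keeping genes that reached 10 reads in 4 or more samples; calls needed an adjusted p (Benjamini-Hochberg) under 0.01 and at least a 2-fold change. D15 was fitted likewise, and the difference between the days over all 24 libraries. limma 3.58.1 and DESeq2 1.42.0, other scalings, filters, controls and left-out libraries were the alternatives. Scripts were tested on simulated data. Summed marker genes were compared by exact two-sided permutation tests (scipy 1.17.1). Intervals and limits on low counts cover counting error only. Each SE beside a log2 fold change is the size of that change divided by the square root of the test's F statistic. It was not estimated on its own, also for genes with few reads in 1 group.

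Samples with the same replicate number deviated together from their group means at D21 (correlations of 0.107, 0.179, 0.319 and 0.259 for numbers 1 to 4). The numbers were therefore taken as pairs for the alternative with a replicate block, though no source here says what they mark. Correlations between unlike numbers were not computed. Leukocyte list scores ran in the same order in both groups, at 0.14, -0.12, -0.41 and 0.39 in control replicates 1 to 4 and 2.95, 2.11, 1.06 and 3.34 in EAM replicates. Whether the numbers mark pairs was not tested.

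The comparison and the gene lists were chosen with earlier results of these data known. Genes were named by a rule. It took the 15 largest changes in each direction of genes that averaged 1 CPM or more and have no near-identical copy. It took up to 4 members of each list (the lowest p and the highest CPM), Ptprc and Myh6. It also took the 5 largest differences from D15 past the limits in each direction, and up to 10 genes in each direction called at D21 and not at D15. Adipoq, Bank1, C1qa, C1qb, C1qc, Cacna1g, Cacna1h, Cd163, Cfb, Cthrc1, Dkk3, Gbp2, H2-T23, Hdc, Ifit1, Il1a, Il1b, Isg15, Kcnj3, Kcnj5, Lox, Stard10, Tbx5, Timp1, Tnc and the sex-linked genes were named after their values were seen. Some genes that this rule names are not reported here.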

Additional observations from a re-analysis of the deposited data

Results flagged for a closer look

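Single hearts lay far from the others of their group, by Dixon's criterion for 4 samples, in 25 of 440 groups of values (5.68%), and chance gives about 1 in 20 groups. EAM replicate 3 was such a heart for Xist (165 CPM, scaled over 24 libraries), Sln (2.24 CPM), Myl7 (10.6 CPM), Myl4 (19.0 CPM) and Blk (8.23 CPM), each highest of the EAM hearts, and for the share of protein-coding counts (97.2%), the lowest. EAM replicate 1 was highest for Ighg1 (51.0 CPM), Atp6v0d2 (18.7 CPM) and the summed B cell genes (49.8 CPM, scaled over 24 libraries), and lowest for the score of glycolysis and lactate genes (0.27). EAM replicate 2 was highest for Plin1 and Adipoq (0.598 CPM each), and EAM replicate 4 for the score of heat shock and unfolded protein genes (0.89).

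Among the controls, replicate 4 was highest for Ccl22 (0.407 CPM), Cxcl11 (0.305 CPM), Il7r (1.12 CPM) and Itgax (2.70 CPM) and lowest for Myh6 (10417 CPM). Control replicate 1 was highest for Ttn (4076 CPM) and Izumo1r (0.101 CPM), and replicate 2 was highest for Adipoq (7.11 CPM) and lowest for the collagen score (-0.29). Control replicate 3 was lowest for Isg15 (6.77 CPM) and for the score of iron, zinc and acute-phase genes (-0.45) and highest for the share of long noncoding RNA counts (0.689%).

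The EAM effect differed between D21 and D15 in the test of the difference for 26 genes named in the text. As log2 differences, D21 minus D15, it was higher for Acta1 (1.45), Dct (3.45), Pln (1.17) and Tpm1 (1.05), and lower for Adipoq (-4.50), Bmp10 (-9.66), Cacna1h (-1.61), Cd163 (-1.20), Cd207 (-5.55), Cilp2 (-4.68), Comp (-2.26), Cpne5 (-4.32), Fgf12 (-4.77), Gja5 (-1.29), Hamp (-6.00), Lmntd1 (-3.18), Mcpt4 (-1.08), Mybphl (-6.42), Myl4 (-5.72), Myl7 (-6.58), Pck1 (-5.91), Plin1 (-3.91), Sbk3 (-4.87), Sln (-7.07), Tmem163 (-5.005) and Vsig4 (-2.37). With the replicate block 15 of the 26 stayed past the limits, and Cacna1h, Cd163, Cilp2, Gja5, Lmntd1, Mcpt4, Pck1, Plin1, Pln, Tmem163 and Tpm1 did not, at adjusted p-values from edgeR's quasi-likelihood test between 0.0107 and 0.0242. The 4 EAM libraries of D21 carry another library code than the hearts of D15, and the part of this in these differences was not tested.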

How the results depend on the processing

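The called counts at D21 moved with the test, the controls and single libraries. With the count higher given first, they were 1356 and 412 in edgeR's likelihood ratio test, 1364 and 369 in DESeq2, 80 and 135 in limma-voom, 2 and 13 when tested against a 2-fold change, 1580 and 353 against all 12 controls, 0 and 0 against the D10 controls (smallest adjusted p = 0.0109), 1420 and 438 at an FDR of 0.05 and 2-fold, 72 lower against the D15 controls and 473 lower at an FDR of 0.01 without a fold limit. Leaving out 1 library gave between 0 and 1565 higher and between 7 and 530 lower in the quasi-likelihood test, and between 1067 and 1721 higher and between 301 and 829 lower in the likelihood ratio test. Of the 108 genes called at D21 and named in the text, all 108 were called in DESeq2 and in the likelihood ratio test, 48 in limma-voom, 14 when tested against a 2-fold change, 108 without EAM replicate 3, 7 without control replicate 1 and 0 of the 105 tested against the D10 controls, where Nppa (0.50), Gja5 (0.37) and Dkk3 (0.14) changed sign, as did the medians of the mast cell (0.040) and circadian clock lists (-0.26). The cause of these shifts was not tested.

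With the replicate numbers as a block, pairing the samples, 601 genes were higher and 137 lower at D21 and 99 of the 108 named genes were still called. The difference between D21 and D15 gave 51 higher and 63 lower effects with the block, 243 and 229 with total counts in place of TMM, 251 lower in the likelihood ratio test, and between 160 and 1120 higher and between 77 and 446 lower without 1 library.

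Against all 12 controls, EAM minus control differences in summed CPM were 119 for dendritic cell genes, -15151 for cardiomyocyte genes and -263 for adipocyte genes, now past an adjusted 0.05, and -529 for fibroblast genes, no longer past it, as was the share of protein-coding counts (-0.0712 percentage points). Platelet genes changed sign (-7.47). With 4 samples a group, a count of 0 allows up to 0.131 to 0.197 CPM per library.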
